A study of Equus caballus with 6 samples.

Results

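The antioxidant enzymes described here are SOD1, SOD2, SOD3, CAT, GPX1, GPX3, GPX4, PRDX1, PRDX6 and TXN, in lamellar tissue of the equine hoof with and without laminitis. The members are every probe set whose platform annotation names 1 of these 10 symbols and no other gene, which gave 15 of the 24016 probe sets on the array besides its controls. In the hoof, lamellae of epidermis interlock with lamellae of dermis and carry the coffin bone, and laminitis is the failure of this suspension. The data comprise 6 bovine GeneChip arrays, 3 of laminitis (labelled L1, L3 and L4) and 3 of normal tissue (N2, N3 and N4), each of them made from total RNA of a right foot. The breed, age, sex and any treatment of the horses, and how or when the laminitis arose, are not given in the sources used here. Whether each array stands for a different horse is not given either, and p-values therefore reflect array-to-array spread that may be partly technical.

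Aerobic cells make superoxide as a by-product of respiration and of oxidases. Superoxide dismutases turn superoxide into hydrogen peroxide, which is then removed by catalase, by glutathione peroxidases at the cost of glutathione, and by peroxiredoxins, several of which are recharged by thioredoxin. The transcription factor NRF2 drives many genes of the glutathione and thioredoxin systems, whereas SOD2, the mitochondrial manganese enzyme, is also known as a gene that inflammatory cytokines induce through NF-kB.

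The arrays hold bovine probes read with horse RNA, so a probe set that mismatches the horse transcript reads low or not at all. Signals of different probe sets are therefore not compared as transcript levels, and summed marker signals weight the brighter probe sets more. Signals are linear intensities, as deposited. Array medians ran from 86.7 to 96.6, and the number of arrays limits the precision. Testing was limited to probe sets brighter than the array median on 3 or more of the 6 arrays. Of the members, 7 probe sets, for 7 genes, passed this filter, and 8 did not, among them the only probe sets of SOD2, CAT and GPX3. Their differences come from the same limma fit run on all 24016 probe sets with no filter. Markers of the labelled tissue were present: 6 of 9 keratinocyte markers and 7 of 8 fibroblast markers were bright enough to test. The ratio of the 3′ to the 5′ GAPDH control probe sets ran from 4.06 to 9.70 on the laminitis arrays and from 5.51 to 6.87 on the normal arrays. For actin it ran from 4.71 to 6.62 and from 2.08 to 6.25. Such ratios reflect transcript length in the labelled RNA, and their level here also how well each probe set matches the horse transcript. L1 had the highest ratio for both controls.

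With limma and Benjamini-Hochberg adjustment at a threshold of 0.05, 0 of the 7 tested antioxidant probe sets were called higher in laminitis and 0 lower, and 0% of all 12519 tested probe sets were called. At an unadjusted p under 0.05 limma gave 0 of these 7 and 1226 of all tested probe sets, or 9.79%. An ordinary linear model called 0 probe sets in all, and limma with an intensity trend and robust variance called 4, of which 0 were antioxidant enzymes. With no filter limma called 0 of the 15, and 2 of them, SOD2 and CAT, had an unadjusted p under 0.05, as had 7.46% of all probe sets. Of the 15 antioxidant probe sets, 9 had a positive log2 difference (laminitis minus normal), against 43.7% of all 24016. The 9 include every PRDX6 probe set, so they are not 9 separate genes. The median difference was 0.027 over the 15 and -0.066 over all.

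**Figure D1:**
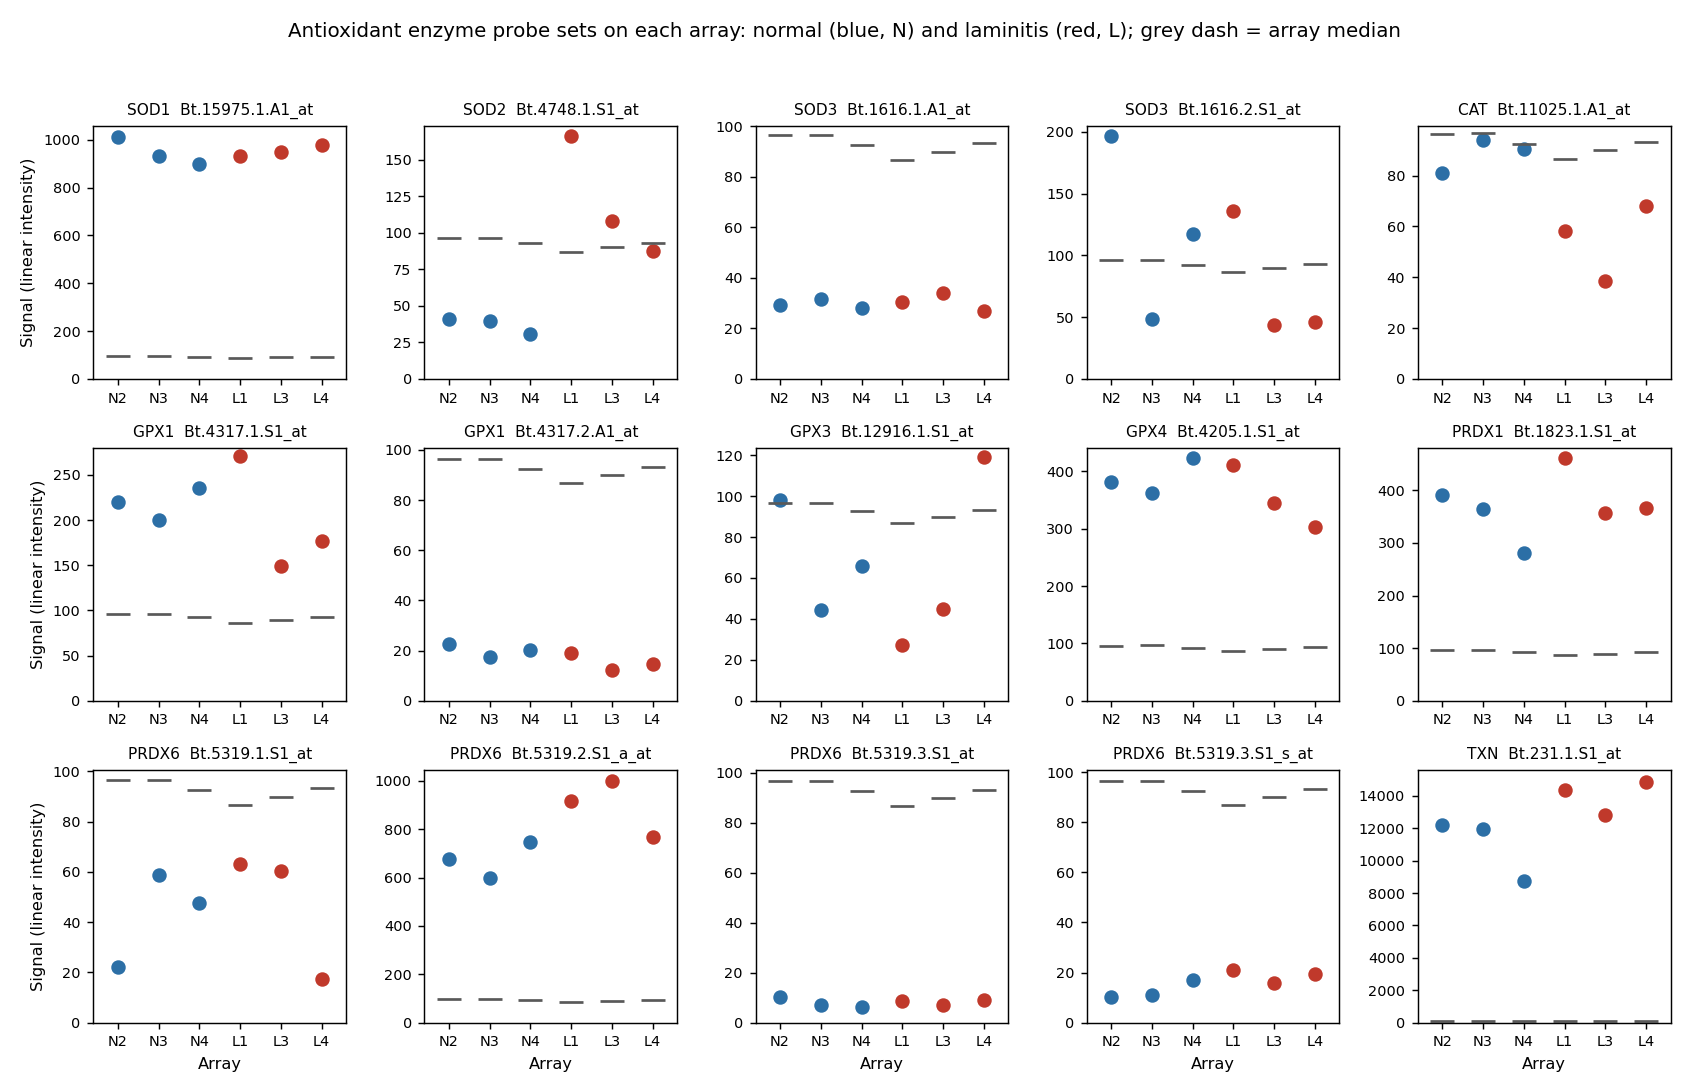
Signal (linear intensity, a separate axis from 0 in each panel) of the 15 antioxidant enzyme probe sets on the 3 normal arrays (N2, N3 and N4, blue) and the 3 laminitis arrays (L1, L3 and L4, red), with each array's median as a grey dash. SOD2 lies higher and CAT lower on every laminitis array than on any normal array, whereas the SOD1 points of both groups overlap.

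SOD2 had the largest difference among the antioxidant enzymes, whatever its sign. Its probe set, Bt.4748.1.S1_at, read 166, 108 and 87.5 on laminitis arrays L1, L3 and L4, and 41.2, 39.3 and 30.9 on normal arrays N2, N3 and N4. Every laminitis value lay above every normal value, with the lowest laminitis value at over 2 times the highest normal value. Such a separation with laminitis higher was seen for 6.32% of all probe sets. The geometric mean was 3.16-fold higher in laminitis, a log2 difference of 1.66 ± 0.31 (SE, n = 3 per group), with a 95% confidence interval from 0.91 to 2.41. The unadjusted p was 0.00143, and SOD2 did not pass over all genes, with a limma adjusted p of 0.354 with no filter. Over the other alternatives that adjusted p ran from 0.219 to 0.755.

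The normal SOD2 mean of 37.1 ± 5.45 (SD, n = 3) lay below every array's median, so the size of the fold depends on how dim signals were treated. With 64 added to every signal before log2, the SOD2 difference was 0.85 in place of 1.66. The groups stayed apart under quantile, cyclic loess and median scaling, while adding 64 cannot change the order of the arrays. With 1 array left out, the difference ran from 1.40 without L1 to 1.86 without L4.

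Some leukocyte markers were higher in laminitis, as SOD2 was, and others lower. Of 9 neutrophil markers, 4 could be tested. Their summed signal was 12992, 9885 and 1495 on L1, L3 and L4 and 503 to 983 on the normal arrays. On the laminitis arrays most of it came from S100A8 and S100A9. On N3 and N4, MPO was the largest of the 4, at 210 and 273. The mean log2 deviation of these 4 markers from the mean over arrays weights the markers equally. It was 1.39, 1.40 and -0.022 on L1, L3 and L4 and -1.31 to -0.20 on the normal arrays. S100A8 and S100A9, the calprotectin subunits, had mean signals of 5948 and 1942 in laminitis and 224 and 89.4 in normal tissue, while the granule enzymes ELANE (log2 -1.05 ± 0.34) and MPO (-0.44 ± 0.21) were lower on every laminitis array, with limma adjusted p of 0.445 and 0.561. ELANE passed the brightness filter only through the normal arrays, so its difference is a description. Of 9 monocyte and macrophage markers, 5 were tested, with a summed signal of 857 to 962 in laminitis and 662 to 838 in normal tissue. CYBB (log2 2.20 ± 0.41) separated the groups, MSR1 had 0.59, and CD68, CD14 and C1QB had -0.26, -0.16 and -0.28. None of these markers passed over all genes, and their part in the SOD2 difference was not tested. In whole tissue, a change in the number of cells of a type and a change of RNA per cell cannot be told apart.

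SOD1, the copper and zinc enzyme of the cytosol, varied little between arrays. The SOD1 probe set, Bt.15975.1.A1_at, read 934, 951 and 978 on L1, L3 and L4 and 1011, 934 and 897 on N2, N3 and N4. The groups overlapped as deposited, and the within-group SD on the log2 scale was 0.033 in laminitis and 0.088 in normal tissue. The log2 difference was 0.012 ± 0.18 (SE, n = 3 per group), and its 95% confidence interval, from -0.40 to 0.43, spans folds from 0.757 to 1.34. That value has no settled sign, since it was -0.18 after quantile normalization and -0.15 after cyclic loess. Centred on the array median it was 0.094, with every laminitis array above every normal one. The limma adjusted p as deposited was 0.988.

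SOD3 is the secreted superoxide dismutase that binds the extracellular matrix, and its probe sets did not give the same picture. The tested one, Bt.1616.2.S1_at, read 136, 43.4 and 46.1 on L1, L3 and L4 and 197, 48.4 and 117 on N2, N3 and N4. Each group held both high and low arrays, the groups overlapped, and the log2 difference of -0.68 ± 0.63 (limma adjusted p 0.748) ran from -1.23 without N3 to -0.22 without N2. The other, Bt.1616.1.A1_at, stayed at 26.7 to 33.9 in laminitis and 28.1 to 31.5 in normal tissue, below every array median, with a difference of 0.031.

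CAT, the peroxisomal catalase that splits hydrogen peroxide, was the only antioxidant enzyme whose laminitis values all lay below the normal ones. Probe set Bt.11025.1.A1_at read 58.1, 38.5 and 68.1 on L1, L3 and L4 and 80.8, 93.9 and 90.5 on N2, N3 and N4. The groups did not overlap, which was seen with laminitis lower for 8.32% of all probe sets, and every value lay below the median of its own array. The geometric mean was 1.65-fold lower in laminitis, a log2 difference of -0.72 ± 0.28 (SE, n = 3 per group) with a 95% confidence interval from -1.41 to -0.042. It had an unadjusted p of 0.0405 with no filter and did not pass, at a limma adjusted p of 0.663, which ran from 0.442 to 0.895 over the other alternatives. Leaving out 1 array gave -0.90 without L4 to -0.49 without L3, and with 64 added the difference was -0.37. Globin and other erythroid probe sets, read because red blood cells are rich in catalase, overlapped between the groups. Of 10 erythroid markers, 7 had a probe set and only 1, EPB42, was bright enough to test. HBA, below the filter, was 33.3, 106 and 133 on L1, L3 and L4 and 48.5 to 65.6 on the normal arrays. The part of blood content in the CAT difference was not tested.

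**Figure D2:**
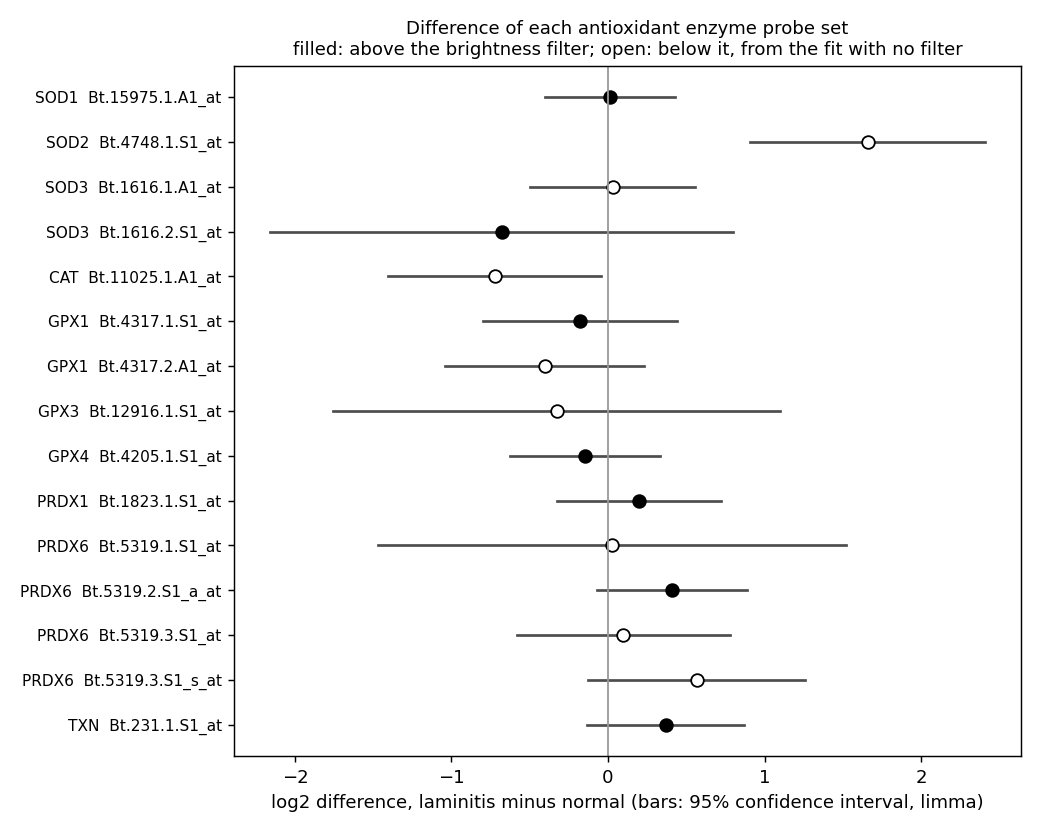
Log2 difference (laminitis minus normal) of each of the 15 antioxidant enzyme probe sets with its 95% confidence interval from limma, filled for the 7 that passed the brightness filter and open for the 8 that did not, fitted with no filter. The intervals of SOD2 (0.91 to 2.41) and CAT (-1.41 to -0.042) leave out 0 before adjustment for the number of probe sets, and the other 13 include it.

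The member glutathione peroxidases GPX1, GPX3 and GPX4, selenoenzymes that reduce peroxides with glutathione, had negative log2 differences as deposited, none past the test. GPX1, the abundant cytosolic form, read 271, 149 and 177 on L1, L3 and L4 and 219.7, 199.9 and 236 on N2, N3 and N4 with its tested probe set, Bt.4317.1.S1_at. The highest and the lowest of the 6 values were both laminitis arrays. Its log2 difference was -0.18 ± 0.26 (SE, n = 3 per group, limma adjusted p 0.846), and 0.0080 without L3. A dim GPX1 probe set, Bt.4317.2.A1_at, lay at 12.2 to 19.2 in laminitis and 17.6 to 22.5 in normal tissue, with a difference of -0.41, or -0.25 without L3 and -0.084 with 64 added.

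GPX4 reduces lipid hydroperoxides within membranes and so restrains ferroptosis. The GPX4 probe set, Bt.4205.1.S1_at, read 411, 346 and 304 on L1, L3 and L4 and 382, 362 and 424 on N2, N3 and N4, with overlapping groups. Its difference of -0.15 ± 0.20 (limma adjusted p 0.834) has a 95% confidence interval from -0.62 to 0.33, which spans folds from 0.649 to 1.26, and it was -0.043 without L4.

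GPX3 is the secreted form found in plasma and interstitial fluid. Its probe set, Bt.12916.1.S1_at, read 27.2, 44.9 and 119 on L1, L3 and L4 and 98.0, 44.4 and 66.1 on N2, N3 and N4. Laminitis array L4 was the highest of all and L1 the lowest, and the within-group SD of 1.08 on the log2 scale in laminitis was the largest of the 15 antioxidant probe sets. The difference of -0.33 ± 0.59 (no filter, limma adjusted p 0.909) changed sign without L1, to 0.15, and lay at -0.92 without L4.

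The members PRDX6, PRDX1 and TXN (thioredoxin) had positive log2 differences in their bright probe sets as deposited, none past the test. That of TXN was negative after cyclic loess normalization. PRDX6, a peroxiredoxin with a single active cysteine that also cleaves phospholipids, separated the groups in its bright probe set, Bt.5319.2.S1_a_at. That probe set read 918, 999.99 and 769 on L1, L3 and L4 and 675, 599 and 749 on N2, N3 and N4. The lowest laminitis value, on L4, and the highest normal value, on N4, lay close together. The geometric mean was 1.33-fold higher in laminitis (log2 0.41 ± 0.20, SE, n = 3 per group), with a 95% confidence interval from -0.071 to 0.89, an unadjusted p of 0.0841 and a limma adjusted p of 0.567. Without 1 array the difference ran from 0.32 to 0.51, and it was 0.26 after quantile and 0.28 after cyclic loess normalization, with the groups apart under both.

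The other 3 PRDX6 probe sets lay below the median of every array. Bt.5319.3.S1_s_at, whose suffix marks probes shared by more than 1 sequence, read 21.0, 15.8 and 19.4 on L1, L3 and L4 and 10.4, 11.1 and 17.2 on N2, N3 and N4, a difference of 0.57 ± 0.29 with N4 above L3. Bt.5319.1.S1_at (0.027) and Bt.5319.3.S1_at (0.099) overlapped widely, and Bt.5319.1.S1_at ran from -0.39 without N2 to 0.64 without L4.

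PRDX1, the cytosolic peroxiredoxin with paired active cysteines that thioredoxin recharges, read 462, 358 and 367 on L1, L3 and L4 and 391, 364 and 282 on N2, N3 and N4 (Bt.1823.1.S1_at). L1 stood highest and N4 lowest, and the remaining 4 arrays interleaved. The log2 difference was 0.20 ± 0.22 (SE, n = 3 per group, limma adjusted p 0.799), with a 95% confidence interval from -0.32 to 0.72, and 0.058 without N4.

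TXN, the small dithiol protein that recharges PRDX1 and ribonucleotide reductase, read 14364, 12800.2 and 14861 on L1, L3 and L4 and 12201, 11921 and 8723 on N2, N3 and N4 (Bt.231.1.S1_at). As deposited, the laminitis signals all exceeded the normal ones, with N4 well below the others. The geometric mean was 1.29-fold higher (log2 0.37 ± 0.21, SE, n = 3 per group), with a 95% confidence interval from -0.13 to 0.87 and a limma adjusted p of 0.614. The direction depended on the scaling: the difference was 0.013 after quantile normalization and -0.15 after cyclic loess, with the groups overlapping under both. Without N4 the deposited difference was 0.21. Among the 7 tested antioxidant probe sets, PRDX6 and TXN had laminitis wholly above normal, as had 7.89% of all tested probe sets, and 0 had it wholly below, against 8.92%.

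**Figure D3:**
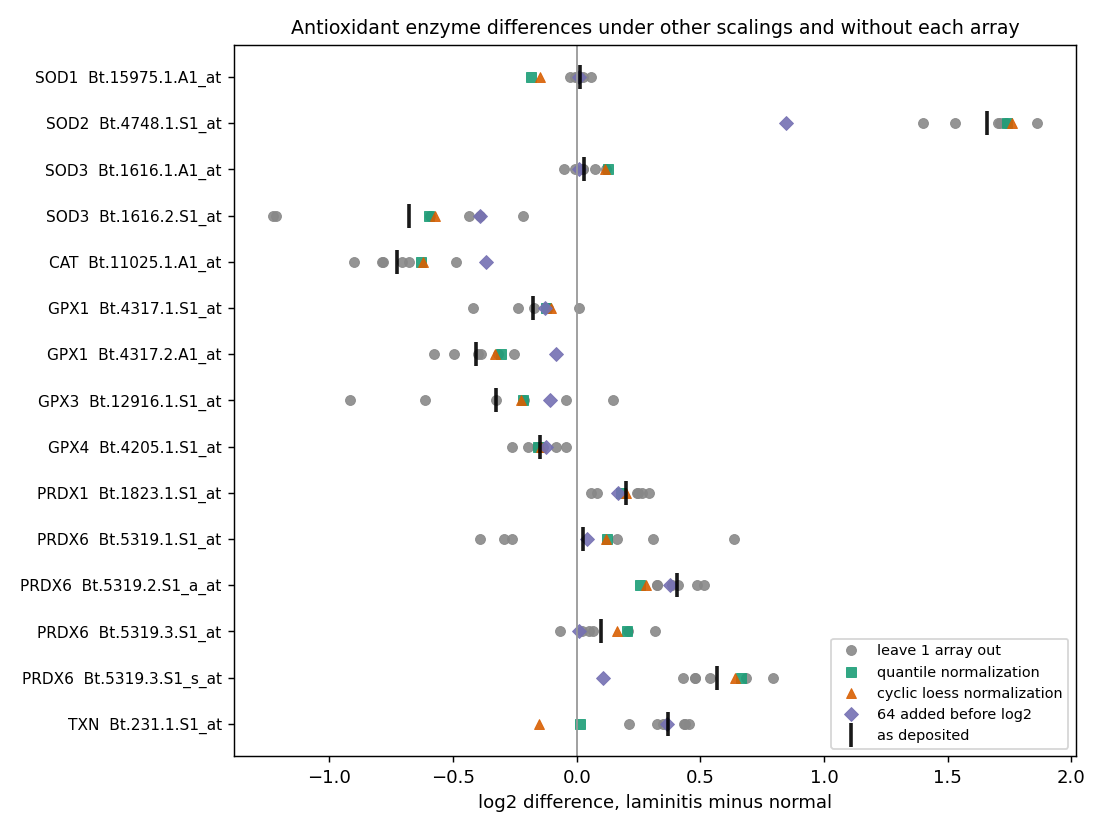
Log2 difference (laminitis minus normal) of each antioxidant enzyme probe set as deposited (black bar), after quantile or cyclic loess normalization, with 64 added before log2, and with each array left out in turn (grey points). SOD2 stays between 0.85 and 1.86 and CAT between -0.90 and -0.37 under these settings, whereas TXN is 0.013 after quantile normalization and -0.15 after cyclic loess, and SOD1 lies at -0.18 and -0.15.

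By Pearson correlation of log2 signals over the 6 arrays, the genes most like SOD2 were NSRP1 (0.99), CTNNB1 (0.99) and DPCD (0.99), and the most opposite were CDH2 (-0.99), NTN4 (-0.99) and TPD52L1 (-0.99), among 6151 genes with a tested probe set. The 6 points share their arrays and fall in 2 groups that SOD2 itself keeps apart, so the values describe likeness on these arrays only, and 133 genes exceeded 0.9. CDH2, NTN4 and TPD52L1 each passed the brightness filter on 3 arrays only, the normal ones, which favours genes that run opposite to SOD2. DPCD read 175, 142 and 147 on L1, L3 and L4 and 101, 100.3 and 86.6 on N2, N3 and N4, higher on every laminitis array. CDH2, N-cadherin, read 12.2, 28.9 and 42.9 on L1, L3 and L4 and 106, 103 and 163 on N2, N3 and N4, lower on every laminitis array. The likeness of CTNNB1, a very bright probe set, was 0.32 after quantile normalization and -0.58 after cyclic loess, while TPD52L1 kept -0.959 and -0.963, and the other 4 stayed closer to 1 in size under both.

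Around the 10 enzymes, 89 other symbols of glutathione, thioredoxin, NRF2 and NADPH metabolism were listed, of which 63 had a probe set and 41 could be tested, each by its brightest tested probe set. Limma called 0 of the 41 higher and 0 lower, as for all 6151 genes tested (0%). At an unadjusted p under 0.05 there were 4, or 9.76%, against 9.87% of all genes, and the groups did not overlap for 3 with laminitis higher (7.32%, against 8.75%) and 3 with laminitis lower (7.32%, against 8.37%). Of the 41, 21 had a positive difference and 20 a negative one, where 46.4% of all genes were positive, and under the other scalings 19 to 22 were positive. The median was 0.0063, and -0.024 after quantile normalization. These shares are near the background, so they set the list apart from other genes in neither direction.

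**Figure D4:**
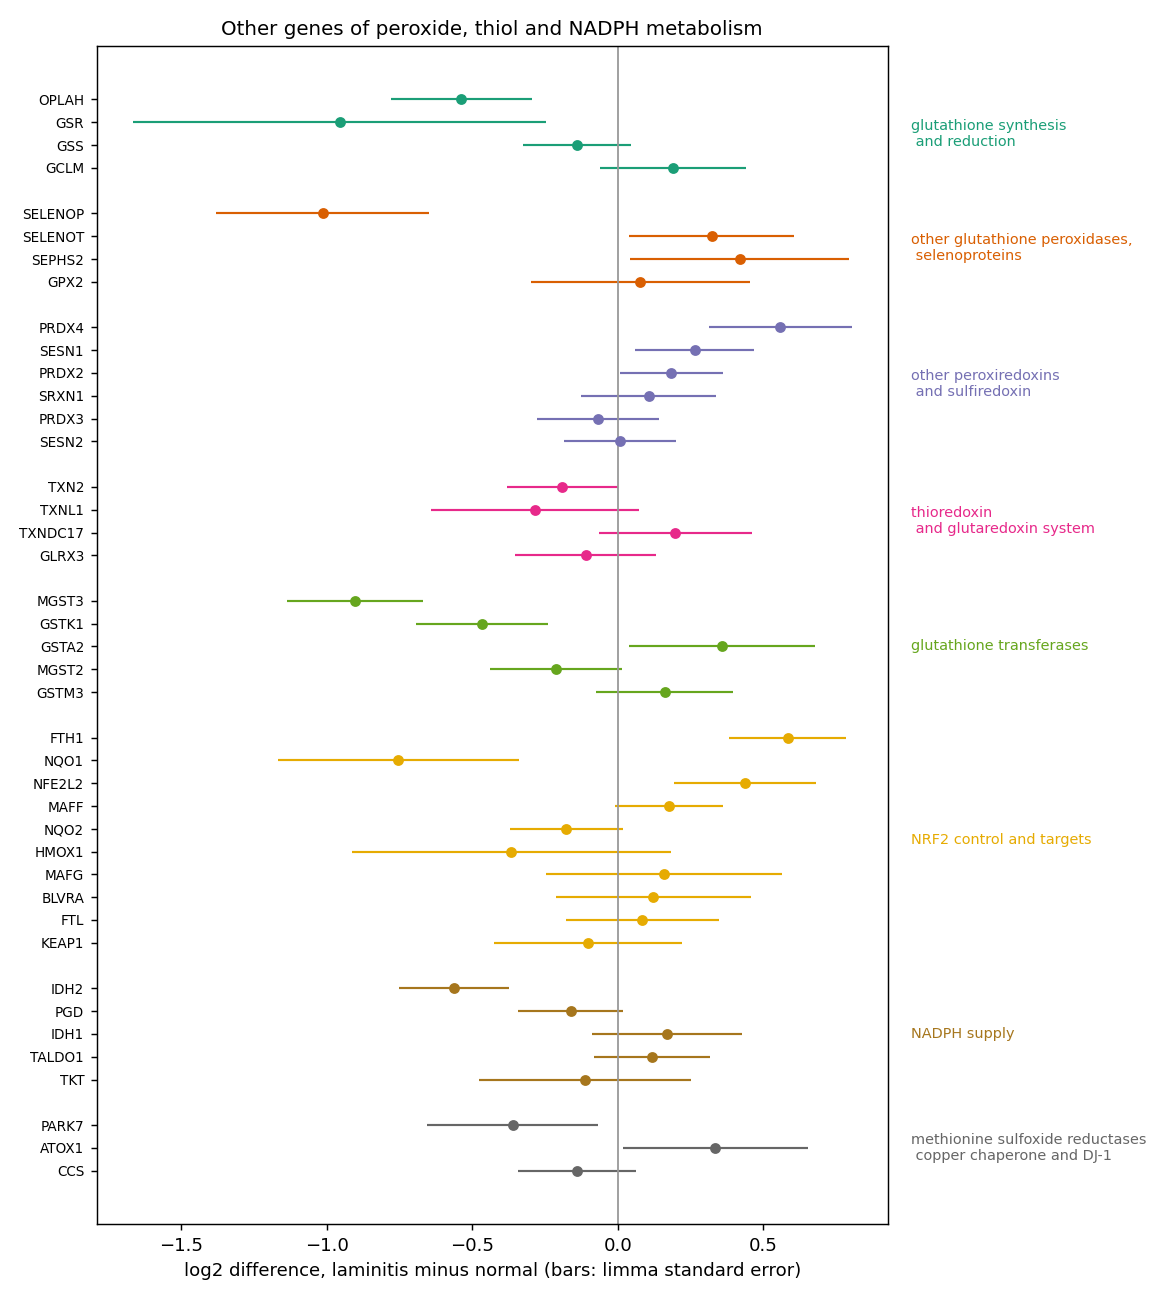
Log2 difference (laminitis minus normal, limma standard error as bars, n = 3 per group) of the 41 tested genes of glutathione, thioredoxin, NRF2 and NADPH metabolism, grouped by list. Values run from -1.01 (SELENOP) to 0.58 (FTH1), and none passed the test over all genes.

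In glutathione synthesis and reduction, 1 of 4 tested genes was positive and 0 passed. OPLAH, which opens 5-oxoproline to glutamate in the glutathione cycle, had -0.54 ± 0.24 (limma adjusted p 0.538), and another OPLAH probe set gave 0.21. GSR, glutathione reductase, had -0.96 ± 0.71 and read 20.7 on L1 alone, with 101 and 164 on L3 and L4. Its normal values were 115 to 163, and without L1 the difference was -0.077.

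Among other glutathione peroxidases and selenoproteins, 3 of 4 tested genes were positive and 0 passed, with GPX2 negative after quantile normalization. SELENOP, the secreted selenium carrier, had -1.01 ± 0.37 (unadjusted p 0.0275, limma adjusted p 0.48), with signals of 189.8, 153 and 361 on L1, L3 and L4 and 522, 330.05 and 499.6 on N2, N3 and N4. The groups overlapped through L4 and N3. SELENOT had 0.32 ± 0.28.

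Of 6 other peroxiredoxin, sulfiredoxin and sestrin genes, 5 were positive and 0 passed, with PRDX3 also positive after centring on the median. PRDX4, the peroxiredoxin of the endoplasmic reticulum, read 1936, 1255 and 1324 on L1, L3 and L4 and 875, 978 and 1176 on N2, N3 and N4, with the groups apart, and had 0.56 ± 0.24 (limma adjusted p 0.524), or 0.31 after quantile normalization, 0.36 after cyclic loess and 0.36 without L1. SESN1 had 0.26 ± 0.20, and its other probe sets, both below the filter, gave -0.42 and 0.89. PRDX2, also apart between the groups and named after its values were seen, had 0.18 ± 0.18. The 3 tested SESN2 probe sets, also named after their values were seen, disagreed, at 0.0063, 0.60 and -0.49. The thioredoxin and glutaredoxin genes had 1 positive of 4, with TXN2, mitochondrial thioredoxin, at -0.19 ± 0.19, or -0.087 without L3, and TXNL1 at -0.28 ± 0.36, or -0.034 without L4. GLRX3, a glutaredoxin named after its values were seen, had -0.11 ± 0.24 in the probe set that stood for it, while another tested GLRX3 probe set had 1.35 ± 0.50 (unadjusted p 0.0309, limma adjusted p 0.49) with the groups apart.

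Of 5 glutathione transferases, 2 were positive and 0 passed, with GSTM3 negative after quantile or cyclic loess normalization. MGST3, a membrane-bound transferase and peroxidase, had the smallest p of the 41 genes. It read 297, 409 and 411 on L1, L3 and L4 and 588, 826 and 673 on N2, N3 and N4, with every laminitis array below every normal one. The difference was -0.90 ± 0.23 (unadjusted p 0.00604, limma adjusted p 0.345), and -0.97 and -0.95 after quantile and cyclic loess normalization. GSTK1 had -0.47 ± 0.23, with -0.39 from another tested probe set and 0.19 from a dim probe set below the filter.

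NRF2 control and target genes had 6 positive of 10 and 0 past the test. FTH1, the ferritin heavy chain that stores iron, read 2362, 1884 and 1813 on L1, L3 and L4 and 1482, 1227 and 1316 on N2, N3 and N4. The groups did not overlap, and the difference was 0.58 ± 0.20 (unadjusted p 0.0231, limma adjusted p 0.465), or 0.29 after quantile normalization. NQO1, a quinone reductase often used as a readout of NRF2, had the opposite sign, -0.75 ± 0.41 (limma adjusted p 0.598), with 42.2, 56.3 and 133 on L1, L3 and L4 and 105 to 125 on the normal arrays. It was -0.41 without L1 and -1.23 without L4. NFE2L2, which encodes NRF2 itself, had 0.44 ± 0.24 (limma adjusted p 0.599), or 0.24 after quantile normalization and 0.23 without L1, and its other, dimmer probe set gave 0.83 with the groups apart. HMOX1, heme oxygenase, had -0.37 ± 0.55, or 0.29 without L4 and -0.80 without L1. NFE2L2 and HMOX1 were chosen after the values were seen.

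Of 5 genes that supply NADPH, 2 were positive and 0 passed. IDH2, the mitochondrial isocitrate dehydrogenase that makes NADPH, read 353, 337 and 314 on L1, L3 and L4 and 549, 434 and 505 on N2, N3 and N4, apart between the groups, with -0.56 ± 0.19 (unadjusted p 0.0209, limma adjusted p 0.456). PGD, of the pentose phosphate pathway, was also lower on every laminitis array, by a smaller -0.16 ± 0.18. Among the copper chaperones and DJ-1, 1 of 3 was positive, with PARK7 (DJ-1) at -0.36 ± 0.29, or -0.091 without L4, and ATOX1 at 0.34 ± 0.32, or 0.0077 without L1.

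The remaining 22 listed genes with a probe set lay below the filter in all of their 25 probe sets, among them GCLC and TXNRD1, and with no filter limma called 0 of these. PRDX5 (log2 1.26), NNT (-0.67) and MSRA (-1.01), named after their values were seen, kept the groups apart in 1 probe set each. That is 1 of the 25 probe sets with laminitis higher and 2 with laminitis lower, where 6.32% and 8.32% of all 24016 probe sets were so. These counts do not set the genes apart from the background. PRDX5 read 16.9 to 23.8 in laminitis and 6.09 to 15.8 in normal tissue, all far below the array medians.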

How the data were processed

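Biotin-labelled cRNA was made with a T7 oligo(dT) primer and 1-cycle amplification, per the labels' protocols. The deposited values are linear intensity values that the authors brought to a common level, since their mean without the top and bottom 2% of probe sets came to 150.02 or 150.03 on all arrays. The submitters' processing notes name GCRMA with no version, which yields log2 values, so the step that made the deposited intensities is not settled. The table holds 24128 probe sets, of which 112 are controls and were dropped. Of the rest, 13292 had 1 symbol, 86 several and 10638 none in GEO's annotation of the bovine array, which can be old. Detection calls were not used here.

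The log2 of each intensity, with nothing added, was fitted in limma 3.58.1 (lmFit, eBayes; R 4.3.3) with group as the only term and two-sided p-values, adjusted by Benjamini-Hochberg across the tested probe sets. Folds are ratios of geometric means. Arrays were compared before averaging, and 0 pairs held identical values. The procedure was tested on simulated data. The members and lists were chosen with earlier results of these data known. All member probe sets are named, and of the other redox lists the 2 tested genes of smallest p per list. Other list genes named are those said to be chosen later, those whose sign changed with the scaling, and examples below the filter. The rule for genes like SOD2 asked for a tested probe set, and since SOD2 has none its only probe set was used. Replicate numbers 3 and 4 occur in both groups, and the labels do not say that they mark a shared animal or day. Alternatives were other filters, scalings, variance models, array weights, an added 64, the replicate number as a block and each array left out. Sequences were not used here.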

Additional observations from a re-analysis of the deposited data

How the results depend on the processing

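Over the 16 alternatives run, 0 antioxidant probe sets and 0 other redox genes passed under any. Among all tested probe sets limma called 6 when a probe set had to lie above the array median on all 6 arrays, 4 with an intensity trend and robust variance, and 0 to 2 with 1 array left out (2 without laminitis replicate 4). The sign of the difference held in 8 of 15 antioxidant probe sets under all alternatives run on them, and in the other 7 it did not. SOD1 was -0.18 after quantile normalization, -0.15 after cyclic loess (a setting chosen after seeing the data) and -0.0029 with array weights, and TXN was -0.15 after cyclic loess. With 1 array left out, SOD1 ran from -0.027 to 0.060, GPX1 Bt.4317.1.S1_at from -0.42 to 0.0080, SOD3 Bt.1616.1.A1_at from -0.052 to 0.12, GPX3 from -0.92 to 0.15, PRDX6 Bt.5319.1.S1_at from -0.39 to 0.64 and PRDX6 Bt.5319.3.S1_at from -0.066 to 0.32. With the replicate block, which rests on numbers 3 and 4 alone, 0 of all tested probe sets passed, and GPX3 was 0.43 and PRDX6 Bt.5319.1.S1_at -0.71. The deviations of same-numbered arrays from their group means correlated at -0.017 and -0.031. So few arrays cannot settle whether the numbers pair the samples. The cause of these differences was not tested. For the 8 antioxidant probe sets below the filter, the low signal over background limits what these arrays can show.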
